A study of Mus musculus with 16 samples.

Results

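Inflammasomes are protein platforms that cells build when a sensor detects damage or microbial products. A sensor such as NLRP3, AIM2 or NLRC4 recruits the adaptor ASC (encoded by Pycard) and caspase-1, which matures interleukin-1β and interleukin-18 and cleaves gasdermin D, whose fragment perforates the plasma membrane in the lytic death called pyroptosis. In dendritic cells and macrophages, a first signal through Toll-like receptors raises the transcripts of several of these parts, and a second signal drives assembly. The 9 genes described here were taken by name. They are the sensors Nlrp3, Aim2 and Nlrc4, the adaptor Pycard, the caspases Casp1, Casp4 and Casp8, the pore former Gsdmd, and Txnip, the thioredoxin-interacting protein, which restrains glucose uptake and has been described as a binding partner of NLRP3. All 9 were measured, among 22180 genes in all. Transcripts were measured, whereas platform assembly, cleavage and cell death were not analysed here.

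RNA came from GM-CSF-grown bone marrow dendritic cells of male C57/B6 mice. GM-CSF was used at 20 ng/ml for 10 days, and every group was kept 24 h in its treatment. A mock group, a group given 0.5 mM PA, a group given IMQ and a group given both had 4 arrays each, 16 arrays in all. PA is taken as palmitic acid, a saturated fatty acid, carried on albumin at 6 to 1, and IMQ as imiquimod, which stimulates the RNA sensor TLR7. The labels disagree on the amount of IMQ (3 uM or 3 ug/ml) and do not say whether mock cells got albumin alone. Sample titles call the 4 arrays of a group biological replicates, but nothing in the labels ties one to an animal or culture. A p-value here therefore reflects the spread among these arrays alone, and part of that spread may be technical. The labels name no genotype, transgene or reporter for any group. The design asks what each agent did alone and what the fatty acid did on top of IMQ.

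Values are log2 RMA values, so a difference of 1 is a 2-fold change, and they were not compared between genes. A change is given with the standard error of the limma fit after ±, and calling a gene took an adjusted p (Benjamini-Hochberg, 22180 genes) below 0.05. All comparisons draw on the same 4 groups and therefore share arrays. RNA was pooled from all cells of a culture, so fewer cells of a type and less RNA per cell cannot be told apart.

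Upstream sequence is shown for Nlrp3 and Casp4, the members that IMQ raised most, and for Txnip, which IMQ lowered and whose control by glucose is well known. Windows of 300 bases (250 before to 50 after a transcription start, RefSeq, GRCm38.p6) were matched by symbol for 8 of the 9 members, with 2 windows each for Casp4 and Nlrp3. Both strands were searched for the kappaB consensus, for CCAAT, for TGATGNAA (a C/EBP-ATF composite), for the core of an interferon-stimulated response element (GAAA, any 2 bases, GAAA) and for a carbohydrate response element (CACGNG, any 5 bases, CACGNG). In the stretches below, each on the + strand, capitals mark the matches. The Casp4 stretch is chr9:5308729-5308823, 120 to 26 bases before the first listed start, with 3 kappaB matches of which the first 2 overlap. The Nlrp3 stretch is chr11:59541379-59541508, 190 to 61 bases before the second listed start, with a kappaB match, CCAAT and TGATGCAA in that order. The Txnip stretch is chr3:96557807-96557896, 150 to 61 bases before its start, with CCAAT on either strand and then the carbohydrate response element.
Casp4: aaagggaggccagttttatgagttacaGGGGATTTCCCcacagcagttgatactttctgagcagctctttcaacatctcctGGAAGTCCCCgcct
Nlrp3: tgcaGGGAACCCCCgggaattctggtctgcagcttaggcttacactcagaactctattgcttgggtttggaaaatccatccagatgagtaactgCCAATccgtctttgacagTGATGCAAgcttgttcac
Txnip: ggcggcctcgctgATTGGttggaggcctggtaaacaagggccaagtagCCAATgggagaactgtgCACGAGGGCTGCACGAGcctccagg

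The kappaB consensus was found in 3 of the 10 member windows (both of Casp4, 1 of Nlrp3) and in 8.46% of all 32851 windows of this length. The 2 Casp4 windows overlap and hold the same 3 matches, so these sites are counted in both. The carbohydrate response element stood in the Txnip window and in 0.0487% of all windows, 16 in number. TGATGNAA occurred in 1 member window and 3.97% of all windows, CCAAT in 4 and 37.4%, and the interferon core in 0 and 3.44%. A match describes letters in a window and is not evidence of a bound site.

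The 8 IMQ-free arrays were not uniform in inflammatory signal. Il6, a cytokine gene induced by Toll-like receptors, read 7.57, 7.90, 7.71 and 4.32 in mock replicates 1 to 4, and 4.12, 3.998, 7.43 and 8.22 with PA. It was 11.86 or higher on every array that received IMQ. The 5 IMQ-free arrays above 6 (mock 1 to 3 and PA 3 and 4) therefore stood apart from the other 3, and the calls of the 9 genes that were lost without them are given both ways. Leaving them out keeps only mock replicate 4 and PA replicates 1 and 2. A call lost that way therefore cannot be told from lost precision. For the identity of the cells, all 9 macrophage markers and all 9 measured conventional dendritic cell markers lay above 4.93, a dim level set by sensory receptor genes, in every group. Of the dendritic cell markers, Zbtb46 and Flt3 (means of 5.47 and 5.73 in mock) lay only a little above this level. All 7 measured lymphocyte markers lay below it, as did Ly6g, Mpo, Camp and Retnlg of the neutrophil list (6 of its 10 markers lay above the dim level in mock, 4 with PA, 3 with IMQ and 2 with both). Of 8 mast cell, basophil and eosinophil markers, 1 lay above it without IMQ and 3 with IMQ. Prg2 (0.45) and Epx (0.37) rose past the dim level with IMQ, whereas Siglecf, above it in every group, fell (-2.57). The summed log2 level of these 8 markers was at least 32.1 in mock and at most 31.3 with IMQ. The summed log2 level of the macrophage list ran from 90.2 to 90.9 in mock, 89.3 to 90.0 with PA, 87.9 to 88.6 with IMQ and 87.0 to 87.7 with both, but its members went both ways. IMQ raised 4 of them, among them Marco (3.04) and Cd14 (1.84), and lowered 5, among them Mrc1 (-3.62) and Mertk (-2.08), and PA on IMQ raised 3 and lowered 6. The sum of the conventional dendritic cell list went from between 79.1 and 80.0 in mock to between 76.9 and 77.6 with IMQ and between 77.3 and 77.8 with both, with 4 members higher and 5 lower with IMQ and 1 each with PA on IMQ. That of the neutrophil list ran from 51.2 to 52.0, 49.4 to 50.1, 51.9 to 52.5 and 48.6 to 49.5 in the order mock, PA, IMQ and both. With PA on IMQ its member Csf3r fell (-1.85) and S100a8 rose (0.26). Of 6 plasmacytoid dendritic cell markers 4 lay above the dim level in every group, and Siglech and Klk1 lay below it. Their list's sum was between 31.4 and 32.9 in mock and between 33.5 and 34.7 with IMQ. IMQ raised 2 of the 6, Cox6a2 (2.26) and Tcf4 (0.27), and lowered 0. The part of these shifts in the results was not tested.

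IMQ alone split the 9 genes. It raised the sensor Nlrp3 3.48-fold, Casp4 3.34-fold, Nlrc4 1.71-fold, Casp1 1.47-fold and Casp8 1.16-fold, and it lowered the adaptor Pycard 1.98-fold together with Txnip. Gsdmd and Aim2 were not called. PA alone called none of the 9. When PA was added to IMQ, Nlrp3 rose a further 1.56-fold while Pycard, Gsdmd, Casp4, Txnip, Aim2 and Casp1 fell, by 1.41-fold for Pycard and by 1.12 to 1.20-fold for the others.

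**Figure D1:**
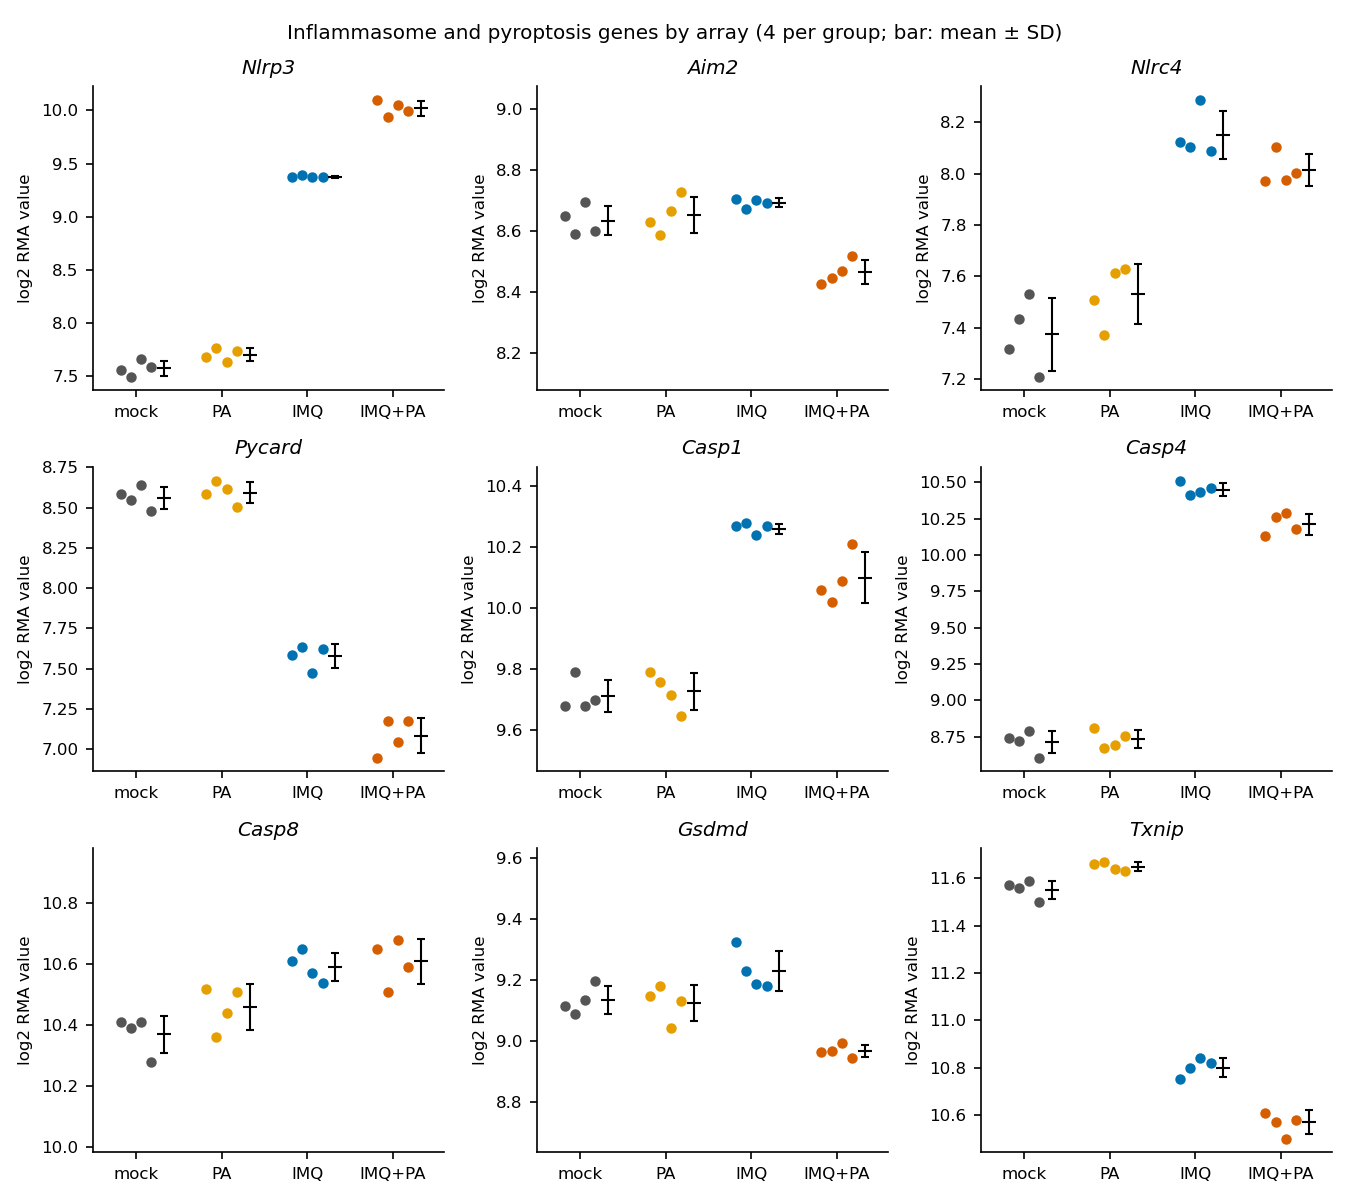
Level of each of the 9 genes on every array (vertical axis, log2 RMA value, each panel on its own scale and not starting at 0; horizontal axis, treatment group; points, the 4 arrays; cross bar, mean ± SD). Nlrp3 climbs from 7.58 in mock to 10.02 with IMQ and PA while Pycard drops from 8.56 to 7.08, and the PA points lie close to the mock points in every panel.

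Among the sensors, Nlrp3 responded most. NLRP3 reacts to potassium loss, crystals and lipid stress, and its low resting transcript is known to need induction before the platform can form. Its log2 level was 7.56, 7.50, 7.67 and 7.58 in the mock arrays and 7.68, 7.77, 7.63 and 7.74 with PA. With IMQ it was 9.37, 9.39, 9.37 and 9.37, and with both 10.10, 9.93, 10.05 and 9.99. Mock and PA overlapped, every IMQ array lay above both, and every array with both agents lay above every IMQ array. The change with IMQ was 1.80 ± 0.05 (adjusted p = 1.76e-13), and PA added 0.64 ± 0.05 to it (adjusted p = 1.02e-07), but 0.13 ± 0.05 in the absence of IMQ (adjusted p = 0.252). The PA change was larger with IMQ than without it by 0.52 ± 0.07 (interaction, adjusted p = 0.000106). IMQ and PA together stood 2.44 above mock, a 5.44-fold difference (adjusted p = 1.50e-14).

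Aim2, a sensor of double-stranded DNA in the cytosol, moved little. Its arrays read 8.65, 8.59, 8.70 and 8.60 in mock, 8.63, 8.59, 8.67 and 8.73 with PA, and 8.71, 8.67, 8.70 and 8.69 with IMQ. With both agents they read 8.43, 8.45, 8.47 and 8.52, below all 12 other arrays, which overlapped one another. IMQ changed it by 0.06 ± 0.04 (adjusted p = 0.340, 95% interval from -0.03 to 0.15). PA on top of IMQ lowered it by 0.23 ± 0.04 on the log2 scale (change -0.23, adjusted p = 0.00102), and its interaction was -0.25 ± 0.06 (adjusted p = 0.0128). The interaction missed the threshold with array medians set equal (adjusted p = 0.0596) and without the 5 arrays of high Il6 (adjusted p = 0.180). Against mock and against PA, the calls for IMQ with PA (-0.17 and -0.19) were also lost without those arrays (adjusted p = 0.208 and 0.0743), and the one against mock with array medians set equal (adjusted p = 0.0536).

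Nlrc4 joins NAIP proteins that bind bacterial flagellin and secretion needle proteins. It measured 7.32, 7.44, 7.53 and 7.21 in mock, 7.51, 7.37, 7.61 and 7.63 with PA, 8.12, 8.11, 8.29 and 8.09 with IMQ, and 7.97, 8.10, 7.98 and 8.004 with both. The IMQ-treated arrays lay above all IMQ-free arrays, and PA overlapped mock just as both agents overlapped IMQ. IMQ raised it by 0.78 ± 0.08 (adjusted p = 3.998e-07). The further change with PA was -0.14 ± 0.08 (adjusted p = 0.243, 95% interval from -0.30 to 0.03). Its interaction of -0.29 ± 0.11 was not called (adjusted p = 0.0879).

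Pycard went the other way from Nlrp3. It encodes ASC, which links the pyrin domain of a sensor to the CARD domain of caspase-1. The mock arrays gave 8.59, 8.55, 8.64 and 8.48, and PA gave 8.59, 8.67, 8.61 and 8.51. IMQ gave 7.59, 7.64, 7.47 and 7.62, and both agents gave 6.95, 7.17, 7.05 and 7.17. The order was therefore mock and PA together, then IMQ, then IMQ with PA, with no overlap between these 3 levels. IMQ changed Pycard by -0.98 ± 0.06 (adjusted p = 1.72e-09), PA on IMQ by a further -0.49 ± 0.06 (adjusted p = 1.76e-05), and PA alone by 0.03 ± 0.06 (adjusted p = 0.869). The interaction was -0.53 ± 0.09 (adjusted p = 0.000560). Cells given both agents held 2.79-fold less Pycard signal than mock cells.

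Casp1, the protease of the canonical platforms, read 9.68, 9.79, 9.68 and 9.70 in mock and 9.79, 9.76, 9.72 and 9.65 with PA. It read 10.27, 10.28, 10.24 and 10.27 with IMQ and 10.06, 10.02, 10.09 and 10.21 with both. IMQ raised it by 0.55 ± 0.05 (adjusted p = 1.65e-07). The arrays with both agents lay between the IMQ arrays and the IMQ-free arrays without overlap, a change of -0.17 ± 0.05 against IMQ (adjusted p = 0.0253). That call was lost in 10 of 17 other settings, among them leaving out IMQ replicate 1, 2 or 4 or IMQ with PA replicate 1, 2 or 3 (adjusted p from 0.00142 to 0.0822 over the 17, and 0.0510 without the 5 arrays of high Il6).

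Casp4 encodes the mouse enzyme often called caspase-11, which binds lipopolysaccharide in the cytosol and cleaves gasdermin D without an inflammasome sensor. Its levels were 8.74, 8.72, 8.79 and 8.61 in mock, 8.81, 8.67, 8.69 and 8.76 with PA, 10.51, 10.41, 10.43 and 10.46 with IMQ and 10.13, 10.26, 10.29 and 10.18 with both. Mock and PA overlapped, and the IMQ arrays were the highest, above those of both agents without overlap. The rise with IMQ was 1.74 ± 0.05 (adjusted p = 4.09e-13), and PA on IMQ changed it by -0.24 ± 0.05 (adjusted p = 0.00340). The interaction of -0.26 ± 0.07 (adjusted p = 0.0305) missed the threshold in 10 of 24 other settings, including leaving out mock replicate 4, PA replicate 1 or 4, IMQ replicate 1 or 4, or IMQ with PA replicate 1 or 4 (adjusted p from 0.00213 to 0.131, and 0.0964 without the 5 arrays of high Il6). Nlrp3 and Casp4, which IMQ raised by nearly the same amount, thus moved in opposite directions when PA was added.

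Casp8, an initiator of apoptosis that also restrains necroptosis and can cleave gasdermin D, changed least among the caspases. Mock arrays gave 10.41, 10.39, 10.41 and 10.28, PA arrays 10.52, 10.36, 10.44 and 10.51, IMQ arrays 10.61, 10.65, 10.57 and 10.54, and arrays with both 10.65, 10.51, 10.68 and 10.59. Neighbouring groups in this order overlapped, except that PA and IMQ did not. IMQ raised Casp8 by 0.22 ± 0.05 (adjusted p = 0.00368), and PA on IMQ changed it by 0.01 ± 0.05 (adjusted p = 0.898, 95% interval from -0.10 to 0.13). Against PA alone, IMQ with PA was higher by 0.15 ± 0.05 (adjusted p = 0.0385), a call lost in 9 of 17 other settings, including leaving out PA replicate 2 or 3 or IMQ with PA replicate 1, 3 or 4 (adjusted p up to 0.129, and 0.121 without the 5 arrays of high Il6).

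Gsdmd, the pore former, is read by 2 probe sets that disagree. The brighter one, used throughout, gave 9.11, 9.09, 9.14 and 9.20 in mock, 9.15, 9.18, 9.04 and 9.13 with PA, 9.32, 9.23, 9.19 and 9.18 with IMQ, and 8.96, 8.97, 8.99 and 8.94 with both. All 4 arrays with both agents lay below the other 12, which overlapped. PA on IMQ changed it by -0.26 ± 0.05 (adjusted p = 0.000543), and IMQ alone by 0.10 ± 0.05 (adjusted p = 0.127). The dimmer probe set, compared after its values were seen, had group means of 6.77 in mock, 6.35 with PA, 6.63 with IMQ and 6.40 with both. It also fell with PA on IMQ (-0.23 ± 0.07, adjusted p = 0.0265). However, it fell with PA alone (-0.42 ± 0.07, adjusted p = 0.00592), where the brighter one changed by -0.01 ± 0.05 (adjusted p = 0.966), and its interaction was 0.18 ± 0.10 (adjusted p = 0.280) against -0.26 ± 0.07 (adjusted p = 0.0155). Against mock, cells given both agents were lower with either probe set (-0.17 and -0.37). The interaction of the brighter probe set was lost without the 5 arrays of high Il6 (adjusted p = 0.235) and with array medians set equal (adjusted p = 0.0517). The call of both agents against mock was lost in the same settings (adjusted p = 0.0553 and 0.0615).

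Txnip binds and inhibits thioredoxin, and its transcript is known to follow glucose supply through MondoA and ChREBP at carbohydrate response elements. Binding at the match printed above was not tested. The arrays gave 11.57, 11.56, 11.59 and 11.50 in mock, 11.66, 11.67, 11.64 and 11.63 with PA, 10.75, 10.80, 10.84 and 10.82 with IMQ, and 10.61, 10.57, 10.50 and 10.58 with both. No group overlapped another, and the order from high to low was PA, mock, IMQ and IMQ with PA. PA alone changed Txnip by 0.10 ± 0.04 and was not called (adjusted p = 0.283, or 0.0437 with a variance trend and robust moderation). IMQ lowered it (-0.75 ± 0.04, adjusted p = 3.48e-10), and PA lowered it again in IMQ-treated cells (-0.23 ± 0.04, adjusted p = 0.000519). The difference between the PA changes was -0.33 ± 0.06 (adjusted p = 0.000932).

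**Figure D2:**
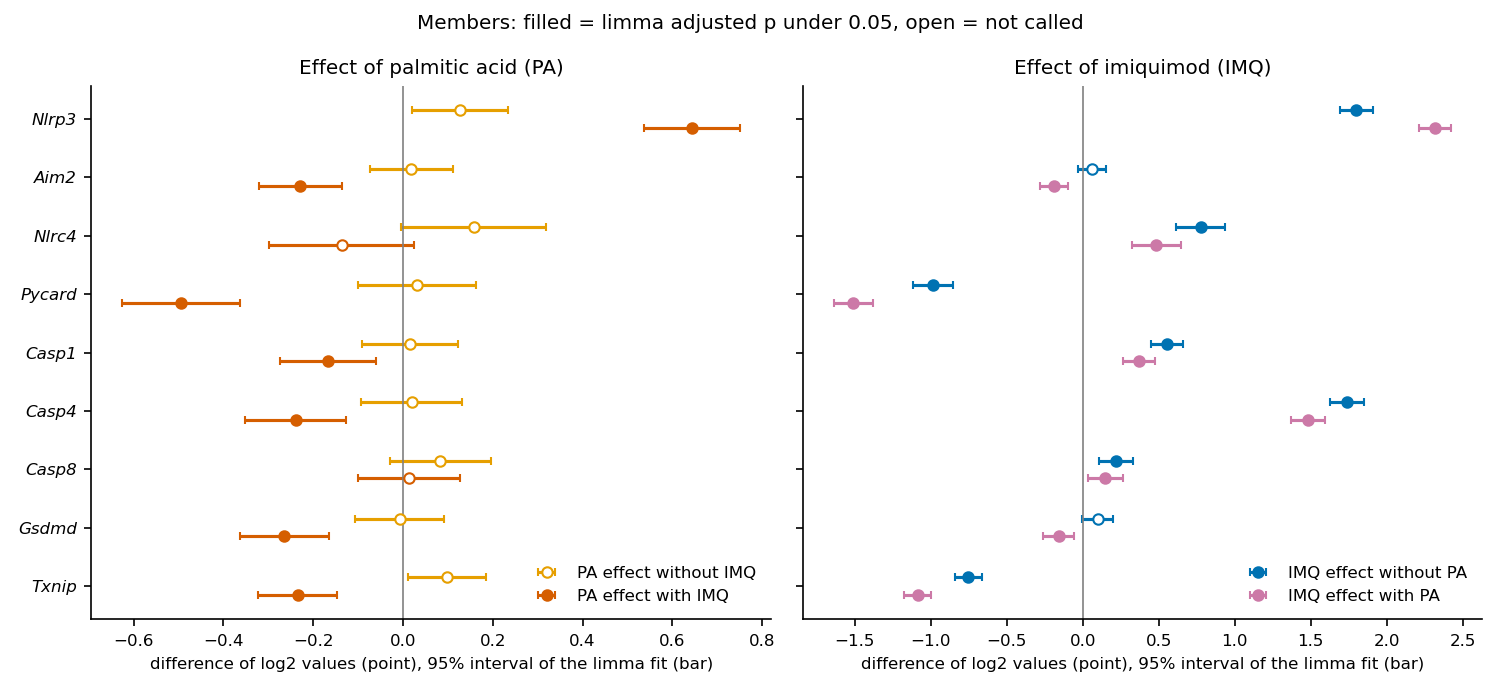
Changes of the 9 genes (horizontal axis, difference of log2 values; points, estimates of the limma fit over 16 arrays; bars, 95% intervals; filled points, called). The left panel sets the PA change without IMQ beside that with IMQ, and the right panel the IMQ change without PA beside that with PA, on different horizontal scales. Without IMQ all 9 PA changes lie between -0.01 and 0.16 and are open, whereas with IMQ Nlrp3 stands at 0.64 and 6 genes lie below 0 and are filled.

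As counts, PA called 0 of the 9 genes, beside 1.49% of all genes (1.05% higher and 0.442% lower), with changes from -0.01 to 0.16. At an unadjusted p under 0.05, limma would have called 2 of them, Nlrp3 and Txnip, beside 14.5% of all genes. IMQ called 7 of 9, 5 higher and 2 lower, beside 34.8% of all genes (17% higher and 17.9% lower). PA on top of IMQ called 7 of 9, 1 higher and 6 lower, beside 21.1% of all genes (11.6% higher and 9.44% lower). In that comparison the median change of the 9 genes was -0.23, with -0.02 over all genes, and the median size of a change was 0.23 against 0.12. IMQ with PA called 5 higher and 4 lower against PA, beside 35.3% of all genes (16.8% higher and 18.5% lower). Against mock it also called 5 higher and 4 lower, beside 36.5% of all genes (18.4% higher and 18.1% lower). With array medians set equal the latter count was 5 higher and 2 lower, beside 35% of all genes. For both comparisons, the calls lost without the 5 arrays of high Il6 are given gene by gene above. The interaction called 6 of 9, 1 higher and 5 lower, beside 13.6% of all genes (6.58% higher and 7.01% lower). This last count was 3 with array medians set equal (1 higher and 2 lower), namely Nlrp3, Pycard and Txnip, beside 10.9% of all genes. Without the 5 arrays of high Il6, which leaves mock replicate 4 alone in its group, the 6 estimates kept their sign. They were 0.50 for Nlrp3, -0.64 for Pycard, -0.40 for Txnip, -0.37 for Casp4, -0.23 for Gsdmd and -0.24 for Aim2. The shares were higher once genes dim in every group were left out. Of the 13558 genes with a group mean above the dim level, the 9 among them, PA called 3.91% and IMQ 56.8%. PA on IMQ called 37.9% of these genes and the interaction 25.9%. Both agents called 57.6% against PA and 59.2% against mock.

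Groups of 4 arrays did not overlap for 1 of the 9 genes with PA alone (9.92% of all genes), for 7 with IMQ (34.2%), for 7 with PA on top of IMQ (23.5%), for 8 with IMQ on top of PA (35.7%), and for 9 when both agents were set against mock (35.3%).

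Across the 16 arrays Nlrp3 and Pycard varied as near mirror images (Pearson r = -0.99), as did Nlrp3 and Txnip (r = -0.99), while Pycard and Txnip moved together (r = 0.99). Casp4 followed Casp1 (r = 0.96) and Nlrc4 (r = 0.95). Gsdmd and Aim2 paired with each other (r = 0.78) and weakly with the caspases (r from -0.24 to 0.07). These coefficients describe 16 arrays that fall into 4 treatment groups, so they mostly restate the group means.

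The genes whose profile was most like that of a member were found by the highest Pearson r over the 16 arrays among 4837 genes whose group means spanned at least 0.5. For Nlrp3 they were the NF-κB inhibitor genes Nfkbie (r = 0.998) and Nfkbib (0.997) and the costimulatory gene Cd80 (0.997), whose means ran 8.28, 8.32, 10.13 and 10.80 from mock through PA and IMQ to both. Those of Casp4 were Smpdl3b, Snx18 and Usp18 (r from 0.996 to 0.997), and those of Casp1 were Usp25, Bcl2a1a and Ifi209 (0.983 to 0.987). Pycard had Emb, Mbnl1 and Plxdc2 (0.993 to 0.994), and Txnip had Prcp, Tifab and Ect2 (0.994 to 0.996). Nlrc4 had Trp53i11, N4bp1 and Scin (0.9745 to 0.981). The likeness was looser for Aim2 (5430427O19Rik, I830077J02Rik and Pstpip2, 0.924 to 0.928), Casp8 (Uri1, Psmd7 and Alg9, 0.907 to 0.911) and Gsdmd (Zhx1, Vav1 and Zfas1, 0.896 to 0.910).

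Other genes of the pathway were taken from 7 lists with 112 genes, of which 103 were measured. IMQ called from 53.3% to 100% of the measured genes of a list, beside 34.8% of all genes, and PA on IMQ from 27.3% to 58.3%, beside 21.1%. Among genes with a group mean above the dim level those shares were 56.8% and 37.9%, while some list genes lay below it in every group. Naip and Gbp genes have near-identical copies in the mouse genome, so the probes of one may read another. Of 14 measured sensors and adaptors other than the 9, IMQ raised 6 and lowered 6. It raised Mefv, which encodes pyrin, by 1.48 ± 0.09, the interferon-induced DNA sensor Ifi204 by 1.03 ± 0.09 and Nod2, a sensor of bacterial muramyl dipeptide, by 0.96 ± 0.06. The partners of Nlrc4 split, with Naip2 higher (0.47 ± 0.05) and Naip5 and Naip6 lower (-0.54 ± 0.07 and -1.05 ± 0.06). PA on top of IMQ lowered 6 and raised 1 (6 and 0 after repeated quantile normalization), including Nod1, another peptidoglycan sensor (-0.85 ± 0.08), Mefv (-0.68 ± 0.09) and Naip2 (-0.34 ± 0.05). Naip5 changed by 0.03 ± 0.07 (adjusted p = 0.837). The 7 calls became 4 without replicate 4 of IMQ with PA.

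Of 21 measured genes of NLRP3 activation and its regulators, IMQ raised 4 and lowered 12. Nek7, the kinase that binds NLRP3 during assembly, read 10.07, 10.02, 10.02 and 10.04 in mock and 9.46, 9.35, 9.41 and 9.41 with IMQ. Its arrays without IMQ lay above all arrays with it (change -0.63 ± 0.04, adjusted p = 1.19e-09), and PA on IMQ changed it by 0.03 ± 0.04 (adjusted p = 0.615). P2rx7, the ATP-gated channel that lets potassium out, fell by 1.28 on the log2 scale (-1.28 ± 0.05), Slc15a4, a lysosomal peptide transporter, changed by -1.31 ± 0.06 and Nlrc3 by -1.24 ± 0.08. Tnfaip3, which encodes the ubiquitin editor A20, rose by 2.33 ± 0.07. PA on top of IMQ raised 5 and lowered 7 of the 21 (7 calls in place of 12 without replicate 4 of IMQ with PA). Serpinb1a, an inhibitor of neutrophil serine proteases and inflammatory caspases, rose by 2.13 ± 0.17 (adjusted p = 9.82e-08) and the channel Panx1 by 1.01 ± 0.08, Nlrc3 rose by 0.40 ± 0.08, and Pstpip1, a binding partner of pyrin, fell (-0.70 ± 0.05).

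Among the 15 genes of substrates, pores and membrane rupture or repair, IMQ raised 6 and lowered 2 (6 and 4 after repeated quantile normalization). Il1b, the precursor of interleukin-1β, read 11.09, 11.28, 11.08 and 9.40 in mock, 9.86, 9.67, 10.66 and 11.23 with PA, 13.11, 13.12, 13.13 and 13.13 with IMQ, and 13.14, 13.16, 13.13 and 13.15 with both. The IMQ-free arrays spread over nearly 2 units and all lay below the arrays with IMQ, which were close together. The highest value of any probe set on any array was 13.53. IMQ raised Il1b by 2.41 ± 0.36 (adjusted p = 5.12e-05), or by 3.73 without the arrays of high Il6. Il1a, which encodes interleukin-1α, rose by 3.04 ± 0.42, or 4.46 without those arrays. PA on IMQ changed them by 0.02 ± 0.36 and 0.07 ± 0.42 (adjusted p = 0.979 and 0.940). These standard errors pool all 4 groups and so mostly reflect the uneven IMQ-free arrays. The SD of Il1b was 0.88 in mock and 0.72 with PA, against 0.009 with IMQ and 0.014 with both. For Il1a it was 0.96, 0.93, 0.02 and 0.04 in the same order.

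Il18, the other cytokine that caspase-1 matures, behaved differently from Il1b. It read 6.64, 6.73, 6.99 and 6.51 in mock and 7.15, 6.96, 7.25 and 7.04 with PA, then 6.77, 6.60, 6.97 and 6.77 with IMQ and 7.47, 7.52, 7.59 and 7.65 with both. Mock, PA and IMQ overlapped, and all 4 arrays with both agents lay above them. IMQ alone changed Il18 by 0.06 ± 0.10 (adjusted p = 0.714), and PA raised it by 0.78 ± 0.10 in IMQ-treated cells (adjusted p = 2.30e-05). Without IMQ the change was 0.38 ± 0.10, which was not called (adjusted p = 0.0735). The latter was called in 4 of 17 other settings, including leaving out mock replicate 3 (adjusted p from 0.0129 to 0.371). The 2 PA changes differed by 0.40 ± 0.14, also not called (adjusted p = 0.0774), though called in 5 of 24 other settings, including leaving out mock replicate 4 or IMQ replicate 3 (adjusted p from 0.0284 to 0.525).

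Gsdme, a gasdermin cleaved by caspase-3, read 6.37, 6.05, 6.35 and 6.40 in mock and 7.27, 7.04, 7.06 and 7.08 with IMQ, and 6.40, 6.52, 6.42 and 6.36 with both agents. IMQ raised it by 0.82 ± 0.08 (adjusted p = 4.28e-07) and PA on IMQ lowered it (-0.69 ± 0.08, adjusted p = 9.34e-06), with no overlap in either case. Ninj1, whose product ruptures the membrane after pores have formed, rose by 0.44 ± 0.07 with IMQ (adjusted p = 0.000139) and by another 0.43 ± 0.07 with PA on IMQ (adjusted p = 0.000404). Anxa2, an annexin of membrane repair, fell with IMQ (-0.47 ± 0.04).

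**Figure D3:**
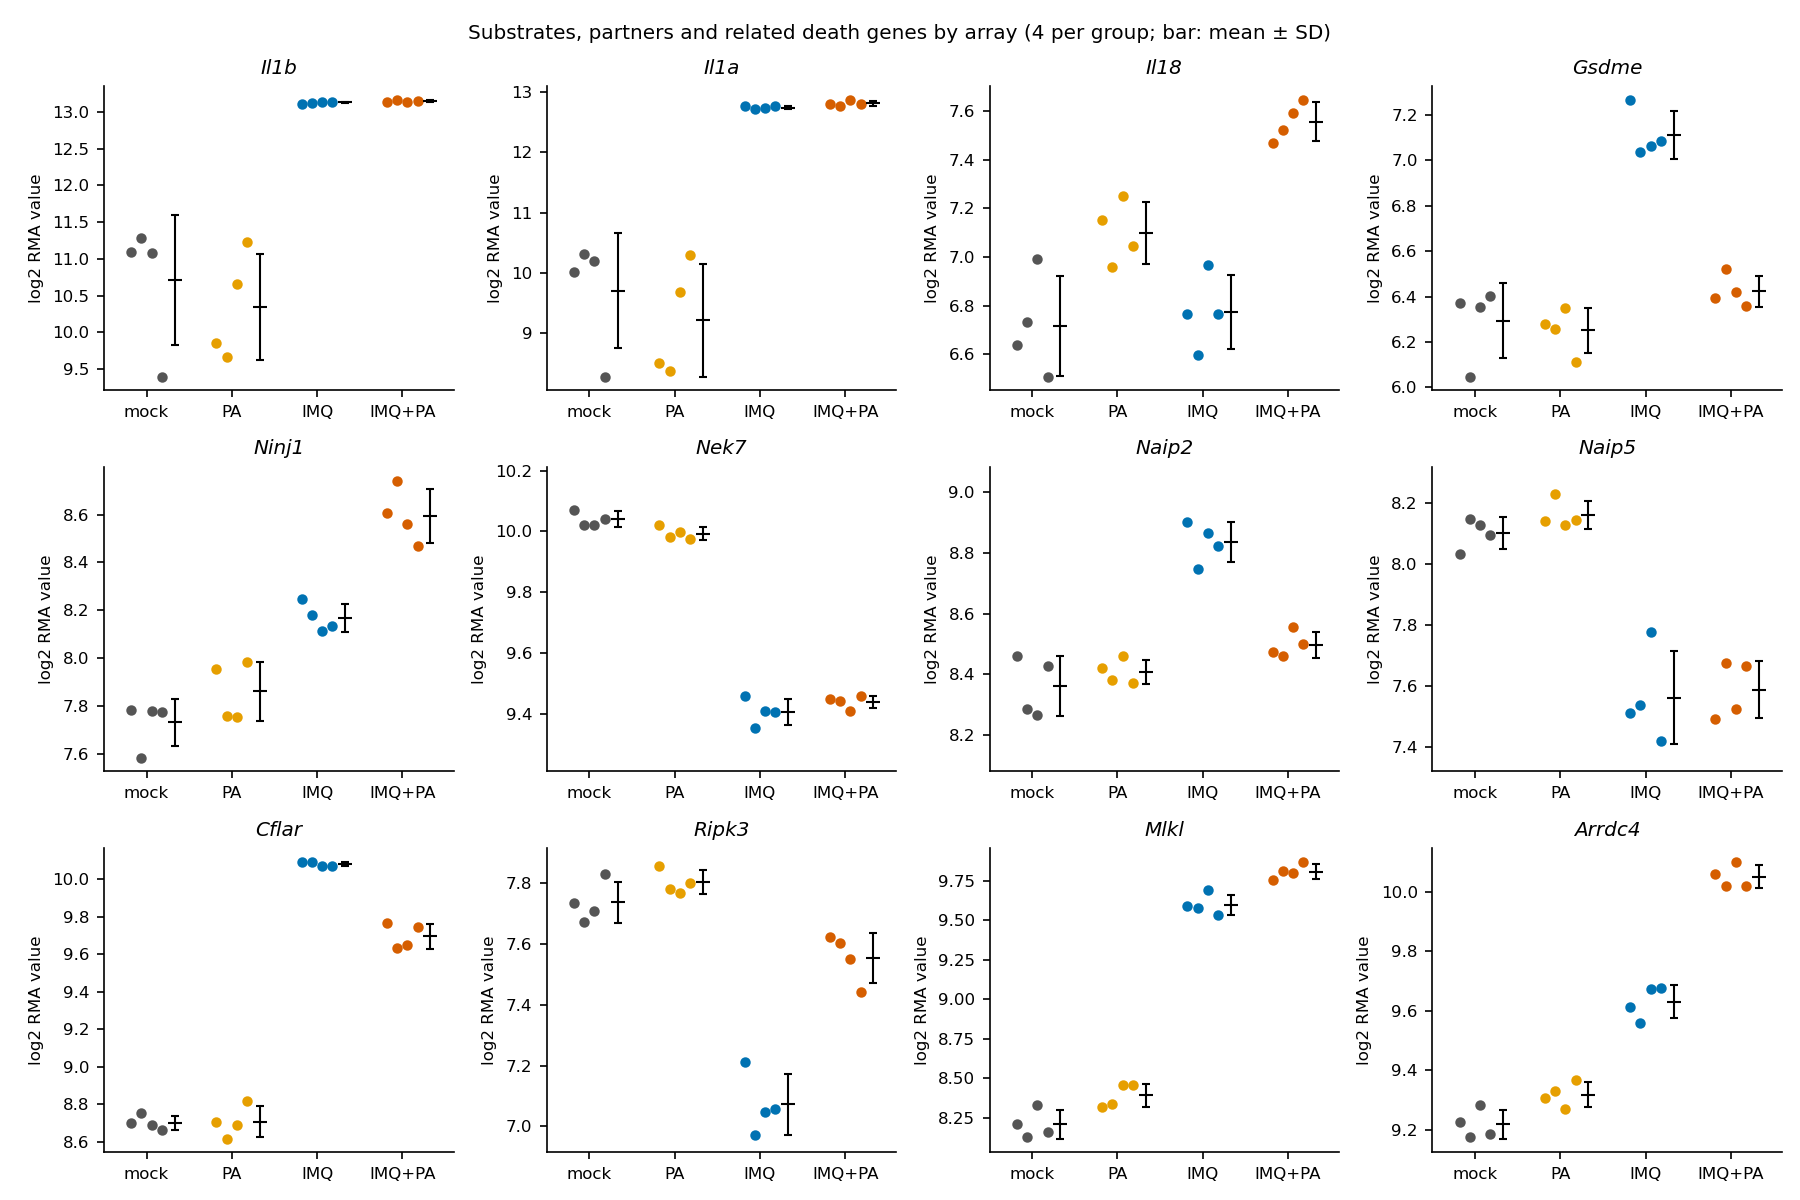
Level of 12 partner genes on every array, drawn as for the 9 genes (vertical axis, log2 RMA value, own scale per panel; points, 4 arrays per group; cross bar, mean ± SD). Il18 and Ninj1 are highest with IMQ and PA (means 7.56 and 8.60), Gsdme and Cflar peak with IMQ alone, and the IMQ-free arrays of Il1b and Il1a spread most widely.

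Of the 15 measured genes around caspase-8, necroptosis and executioner caspases, IMQ raised 8 and lowered 2. Zbp1, a sensor of Z-form nucleic acid that recruits RIPK3, rose by 1.81 ± 0.05, Mlkl, the executioner of necroptosis, by 1.39 ± 0.06, Cflar, which encodes the caspase-8 modulator cFLIP, by 1.38 ± 0.05, and the ubiquitin ligase Birc3 by 1.15 ± 0.05. Ripk3, the kinase that activates MLKL, fell (-0.66 ± 0.06, adjusted p = 1.14e-07), and Fadd, the adaptor of caspase-8, changed by 0.03 ± 0.06 (adjusted p = 0.733). With PA on top of IMQ, 2 were higher and 5 lower. Ripk3 read 7.21, 6.97, 7.05 and 7.06 with IMQ and 7.62, 7.60, 7.55 and 7.44 with both, without overlap (0.48 ± 0.06, adjusted p = 1.38e-05), and Mlkl rose by 0.21 ± 0.06 (adjusted p = 0.0128). Cflar fell from 10.09, 10.09, 10.07 and 10.07 to 9.77, 9.63, 9.65 and 9.74 (-0.38 ± 0.05, adjusted p = 2.31e-05). The death receptor gene Fas fell (-0.80 ± 0.05, adjusted p = 3.33e-09), as did Zbp1 (-0.29 ± 0.05).

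Interferon-induced helpers of caspase-4 and AIM2 include the guanylate-binding proteins, which coat bacteria and expose lipopolysaccharide and DNA. IMQ raised 10 of the 11 measured and lowered 1. Gbp5 rose by 3.58 ± 0.14, Gbp3 by 2.38 ± 0.09, Gbp7 by 2.12 ± 0.06 and Igtp by 1.62 ± 0.08. PA on top of IMQ lowered 3 of 11 and raised 0 (27.3%, beside 21.1% of all genes and 37.9% of genes above the dim level). The 3 were Irgm2 (-0.28 ± 0.07), the transcription factor Irf1 (-0.25 ± 0.05) and Gm12250 (-0.19 ± 0.06, a call lost in 10 of 17 other settings, with an adjusted p up to 0.117). The list's median change was 1.14 with IMQ and -0.11 with PA on IMQ, beside 0.01 and -0.02 over all genes.

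Around Txnip, IMQ raised 7 and lowered 2 of 12 measured thioredoxin partners and glucose-sensing regulators, and PA on IMQ raised 4 and lowered 3. After repeated quantile normalization the IMQ split was 6 and 3, and with array medians set equal the split for PA on IMQ was 4 and 1. Arrdc4, an arrestin related to TXNIP, read 9.23, 9.18, 9.28 and 9.19 in mock and 9.61, 9.56, 9.67 and 9.68 with IMQ, and 10.06, 10.02, 10.10 and 10.02 with both. It rose with IMQ (0.41 ± 0.04, adjusted p = 1.35e-06) and again with PA on IMQ (0.42 ± 0.04, adjusted p = 3.37e-06), where Txnip fell in both. Its relative Arrdc3 fell with IMQ (-1.08 ± 0.07) and rose with PA on IMQ (1.19 ± 0.07, adjusted p = 2.65e-09). Slc2a1, the glucose transporter that TXNIP restrains, rose by 0.71 ± 0.04 with IMQ. The stress factor Atf5 rose with IMQ (0.86 ± 0.08) and fell with PA on IMQ (-0.51 ± 0.08), and Ern1, the endoplasmic reticulum stress sensor IRE1α, rose with IMQ (0.55 ± 0.05). Txnrd1, thioredoxin reductase, rose by 0.70 ± 0.04 with PA on IMQ (adjusted p = 9.75e-09). Thioredoxin itself, Txn1, changed by 0.14 ± 0.04 with IMQ (adjusted p = 0.0172), a call lost in 4 settings, including leaving out mock replicate 2 and, at 0.075 (adjusted p = 0.563), leaving out the 5 arrays of high Il6, and by -0.01 ± 0.04 with PA on IMQ (adjusted p = 0.948).

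In the Toll-like receptor priming pathway, IMQ raised 8 and lowered 6 of 15 measured genes. Irak3, a brake on the signal, rose by 2.14 ± 0.07 and Tlr2 by 0.69 ± 0.05, whereas Tlr8 and Tlr9, which like TLR7 read nucleic acids in endosomes, fell (-1.87 ± 0.05 and -0.74 ± 0.09). PA on top of IMQ raised 4 and lowered 4. Tlr7, the receptor of imiquimod, fell from a mean of 9.24 to 8.42 (-0.82 ± 0.05, adjusted p = 3.78e-09), as did Irak3 (-0.68 ± 0.07) and the adaptor Myd88 (-0.45 ± 0.08), and Ticam1, the adaptor of TLR3 and TLR4, rose by 0.44 ± 0.07. PA alone called 1 gene of the 103 in these 7 lists (1.49% of all genes were called), Tlr2 (0.21 ± 0.05, adjusted p = 0.0418), and that call was lost in 12 of 17 other settings (adjusted p from 0.00393 to 0.293).

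**Figure D4:**
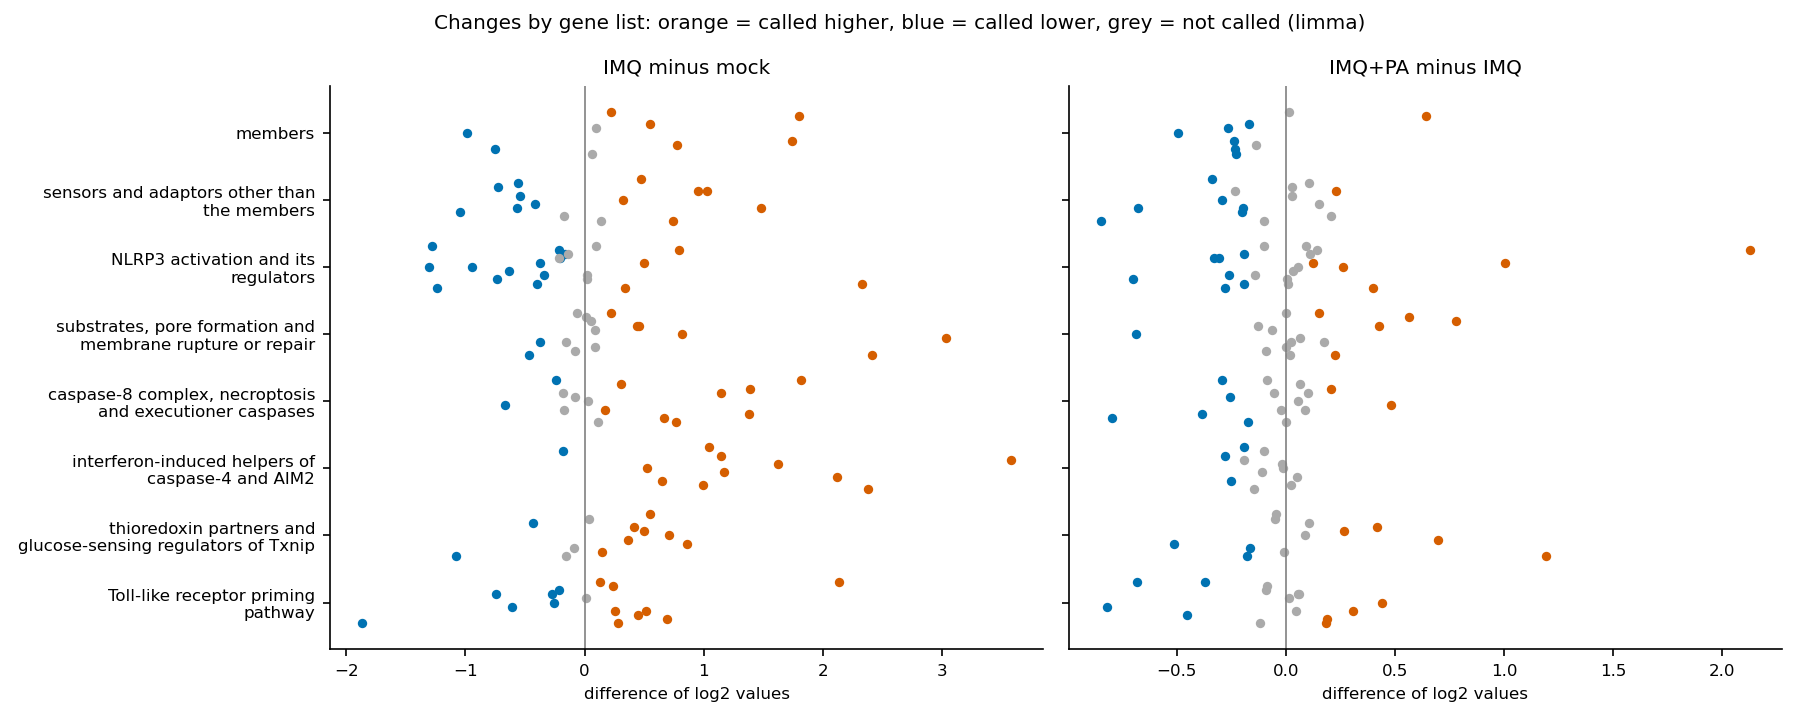
Changes of the 9 genes (top line) and of the 103 other pathway genes, by list (horizontal axis, difference of log2 values; 1 point per gene; orange and blue, called higher and lower by limma; grey, not called; vertical offsets within a line carry no value). The left panel is IMQ against mock and the right panel IMQ with PA against IMQ, on different horizontal scales. The interferon-induced helpers lie to the right with IMQ, up to 3.58, and close to 0 with PA on IMQ, where Serpinb1a is the farthest point at 2.13.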

How the data were processed

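The authors deposited log2 expression values of 41345 probe sets on 16 one-colour Affymetrix arrays (200 ng RNA per sample, per the labels' protocols). RMA and affy are named, with no version, in the submitters' processing notes, and a genome build was not given in the sources used here. The platform annotation gave 1 symbol to 23521 probe sets, several to 1814 and none to 16010, and the latter kinds were left out. The brightest probe set by overall mean stood for each gene, leaving 22180, with no filter on dim genes. The 4 group means were estimated from all 16 arrays (limma 3.58.1, R 4.3.3, two-sided moderated tests, 12 residual and 2.96 prior degrees of freedom). The number of arrays limits the precision. The steps were tested on simulated data. Figures were drawn with matplotlib 3.10.9.

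The 9 genes and all lists were chosen with earlier results of these data known. The text names the 9 genes, 14 preset partner genes, the called genes with the 4 largest changes of a list in a comparison, and the 3 most correlated genes of each member. Settings tried were other normalizations, a dim filter, the mean of all probe sets, a variance trend, only the arrays compared, a replicate block, removal of arrays, and, chosen after seeing the data, the other Gsdmd probe set. Replicate numbers were checked and paired arrays weakly at most.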

Additional observations from a re-analysis of the deposited data

Results flagged for a closer look

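In 7 of 92 sets of 4 arrays checked for the 9 genes and 14 partners, 1 array lay far from the other 3 by Dixon's criterion, which chance gives in about 1 of 20 sets. Nlrp3 with IMQ read 9.39 in replicate 2, with the others at 9.37, so the whole range was only 0.02. In mock replicate 4, Casp8 read 10.28 (the others from 10.39 to 10.41), Il1b 9.40 (11.08 to 11.28) and Il1a 8.28 (10.02 to 10.32). In mock replicate 2, Gsdme read 6.05 (6.35 to 6.40) and Ninj1 7.58 (7.78 in each of the others). Naip5 read 8.23 in PA replicate 2, with the others from 8.13 to 8.14.

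The PA change differed between cells with and without IMQ for 6 of the 9 genes by the interaction term of limma: by 0.52 for Nlrp3, -0.53 for Pycard, -0.33 for Txnip, -0.26 for Casp4, -0.26 for Gsdmd and -0.25 for Aim2. The interaction called 13.6% of all genes. For these 6 genes the 4 arrays with both agents did not overlap the 4 with IMQ alone, as for 23.5% of all genes. That separation describes the PA change with IMQ only. Casp1, whose interaction was not called, showed it too. With array medians set equal, the interaction calls of Casp4, Gsdmd and Aim2 were lost (limma adjusted p = 0.0878, 0.0517 and 0.0596). The dimmer Gsdmd probe set had an interaction of 0.18, which was not called (limma adjusted p = 0.280).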

How the results depend on the processing

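With array medians set equal, the interaction called 3 of the 9 genes in place of 6, beside 10.9% of all genes. Without the mock and PA arrays of high Il6, which leaves mock replicate 4 alone in its group, the interaction estimates of those 6 kept their sign. PA against mock called 1 in place of 0 in 3 settings. With the mean of all probe sets it was Gsdmd (-0.21, adjusted p = 0.04998), beside 1.47% of all genes. With a variance trend and robust moderation it was Txnip, beside 3.32%. The last setting was the other Gsdmd probe set, beside 1.5%. That probe set turned the sign of Gsdmd in IMQ with PA against PA (0.044) and in the interaction (0.18). Leaving out 1 array at a time, the members called stayed at 0 for PA, 7 for IMQ and 9 for both agents against mock, and ranged from 8 to 9 for both against PA, 6 to 7 for PA on IMQ and 5 to 7 for the interaction. In that order, the shares of all genes were 0.766 to 1.56%, 32.5 to 34.5%, 34.3 to 35.3%, 33.4 to 34.1%, 17.9 to 21% and 11.7 to 13.1%. Nlrp3 and Pycard kept their calls and direction in IMQ against mock, PA on IMQ and the interaction in every setting run (Nlrp3 from 0.62 to 0.67 and Pycard from -0.55 to -0.45 for PA on IMQ). Of 981 recomputed member changes, 16 changed sign with neither value past the threshold. No scaling moved the median of all genes by more than 0.03.

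Same-numbered arrays of different groups deviated together weakly at most (4 of 24 pair correlations over 0.1, from -0.12 to 0.17). The pairs of replicate 3 were all above 0, from 0.04 to 0.17. Of 16 arrays, 7 correlated best with their own number, a count not tested against chance. A replicate block called 0, 7, 7, 9, 9 and 6 members in the comparisons PA against mock, IMQ against mock, PA on IMQ, both against PA, both against mock and the interaction, the same counts as without it. In the same order it called 1.17%, 34.8%, 21%, 35.6%, 36.6% and 13.3% of all genes. Among the other genes named, it called Il18 with PA alone (adjusted p = 0.0368) and its interaction (adjusted p = 0.0323), and lost Tlr2 with PA alone (adjusted p = 0.0870) and Gm12250 with PA on IMQ (adjusted p = 0.0657).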
